A study of Homo sapiens with 12 samples.

Results

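The transcripts of OPM2 cells treated for 2 h with JQ1 alone at 250 nM were compared with those of cells given DMSO. OPM2 is a human cell line that was grown from the malignant plasma cells of a multiple myeloma and is widely used as a model of it. The comparison used 6 of the 12 libraries of the series, 3 with JQ1 and 3 with DMSO. The other libraries had 18DS at 250 nM or BKM120 at 1 µM for the same time, 3 of each, and entered the filter on low counts, the shared estimate of spread and a short comparison near the end. Each group was treated as biological triplicates of this line, which is a single genetic background. RNA was read from its 3' ends, so that a count marks the end of a polyadenylated transcript and is not divided by length. Levels are CPM, which are counts set to a common library total that was adjusted by the trimmed mean of M values (TMM), and a gene is said to have risen or fallen only where it passed an edgeR quasi-likelihood test at a Benjamini-Hochberg adjusted p under 0.05.

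The JQ1 libraries held 5828459, 5501895 and 7692013 counts, against 6594995, 6071892 and 5940610 in the DMSO libraries. The mitochondrial share was 6.61% to 7.04% with JQ1 and 6.56% to 6.97% with DMSO. Plasma cell genes marked every library, with a summed level of 5770 to 6080 CPM for 10 such genes with JQ1 and 6380 to 6510 CPM with DMSO. The 10 include *NSD2* and *FGFR3*, which OPM2 expresses from a translocation. The marker sums in this paragraph are CPM of the plain library total, without the TMM adjustment. Markers of other cell types were close to 0. For 13 markers of T and NK cells the sum was 0.65 to 0.909 CPM with JQ1 and 1.06 to 1.35 CPM with DMSO, and *CD3D*, *CD2* and *NKG7* had no count. The 12 myeloid markers summed to 1.03 to 1.95 CPM with JQ1 and 2.31 to 4.38 CPM with DMSO, with *MPO*, *FCN1* and *FCGR3A* at 0. The 11 epithelial and fibroblast markers summed to 0.858 to 1.56 CPM with JQ1 and 1.67 to 2.69 CPM with DMSO. All of these sums, that of the plasma cell genes included, were lower in every JQ1 library than in every DMSO library, and their part in the results was not tested.

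BET proteins, such as BRD2 and BRD3, carry bromodomains that bind acetylated lysines on histones. They help to recruit the elongation kinase P-TEFb, and genes near large clusters of enhancers are known to depend on them most. JQ1 fills the acetyl-lysine pocket and releases BET proteins from chromatin. In myeloma, where immunoglobulin enhancers are often joined to *MYC* or other growth genes, such genes are among the transcripts known to fall early after BET inhibition.

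The 4 promoters shown here belong to *DCUN1D3* and *SERTAD1*, the largest rises at 5 CPM or more, to the response gene *HEXIM1* and to *CCR1*, among the genes that fell most. They set an AT-rich promoter beside GC-rich ones. Each is the 200 bases before the annotated start in RefSeq, on GRCh38.p14, written 5′ to 3′ on the strand of the gene. Capitals mark every match, on either strand, to a set of motifs. The TATA box was searched as TATAAA, and the box bound by NF-Y as CCAAT. The box bound by SP and KLF proteins, called the GC box, was searched as GGGCGG. The E-box that is bound by MYC with MAX was searched as CACGTG. The core of the element bound by CREB (the CRE core) was TGACG, and the site bound by JUN with FOS was TGANTCA. The core bound by proteins of the ETS family was CCGGAA, and the heat shock element was searched as well. None of these motifs is contained in another. The windows are chr16:20900359-20900558 and chr19:40425993-40426192 on the minus strand, chr17:45148275-45148474 on the plus strand, and chr3:46208314-46208513 on the minus strand.
DCUN1D3: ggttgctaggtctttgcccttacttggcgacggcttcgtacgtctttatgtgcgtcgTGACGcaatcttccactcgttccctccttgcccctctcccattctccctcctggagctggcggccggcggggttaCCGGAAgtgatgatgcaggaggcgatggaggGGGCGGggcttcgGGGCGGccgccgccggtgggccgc
SERTAD1: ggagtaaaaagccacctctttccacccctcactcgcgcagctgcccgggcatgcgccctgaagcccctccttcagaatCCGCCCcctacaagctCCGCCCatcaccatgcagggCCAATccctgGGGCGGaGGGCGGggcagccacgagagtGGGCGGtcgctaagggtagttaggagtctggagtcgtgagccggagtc
HEXIM1: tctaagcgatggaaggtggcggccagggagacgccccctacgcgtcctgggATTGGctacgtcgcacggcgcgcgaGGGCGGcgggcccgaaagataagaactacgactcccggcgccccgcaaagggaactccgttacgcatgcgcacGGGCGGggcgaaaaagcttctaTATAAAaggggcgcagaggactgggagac
CCR1: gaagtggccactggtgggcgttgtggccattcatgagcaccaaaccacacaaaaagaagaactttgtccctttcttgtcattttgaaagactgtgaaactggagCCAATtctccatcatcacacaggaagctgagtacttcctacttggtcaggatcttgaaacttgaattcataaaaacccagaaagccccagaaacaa
The window of *CCR1* was 44% G and C, against 66% for *DCUN1D3*, 65.5% for *SERTAD1* and 64.5% for *HEXIM1*. Of these windows only that of *HEXIM1* held TATAAA, and only that of *CCR1* held no GC box.

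Of 13180 tested genes, 346 rose with JQ1 (2.63%) and 455 fell (3.45%), 801 in all (6.08%). Among those that rose, 344 had no overlap between the 3 JQ1 and the 3 DMSO libraries, and among those that fell 452, where 25.3% of all tested genes had none. In RNA from whole cultures, fewer cells of a kind and less RNA per cell cannot be told apart. The median log2 fold change of the rises was 0.744, and 113 exceeded 2-fold and 40 exceeded 4-fold. The median of the falls was -0.579, and 90 exceeded 2-fold and 16 exceeded 4-fold. The median over all tested genes was 0.003, and the median standard error (SE) was 0.169. The balance of rises and falls moved with the scaling: library totals gave 304 rises and 555 falls, and upper-quartile factors gave 413 rises and 379 falls. With 2 JQ1 or 2 DMSO libraries fewer genes were called, 504 without JQ1 replicate 2, 507 without JQ1 replicate 3 and 529 without DMSO replicate 3. The falls were 297 without JQ1 replicate 1. Counts of 1 to 3 genes within a list often changed by 1 when a library was left out. All counts of called members in a list are to be read beside the 2.63% of all tested genes that rose and the 3.45% that fell.

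**Figure D1:**
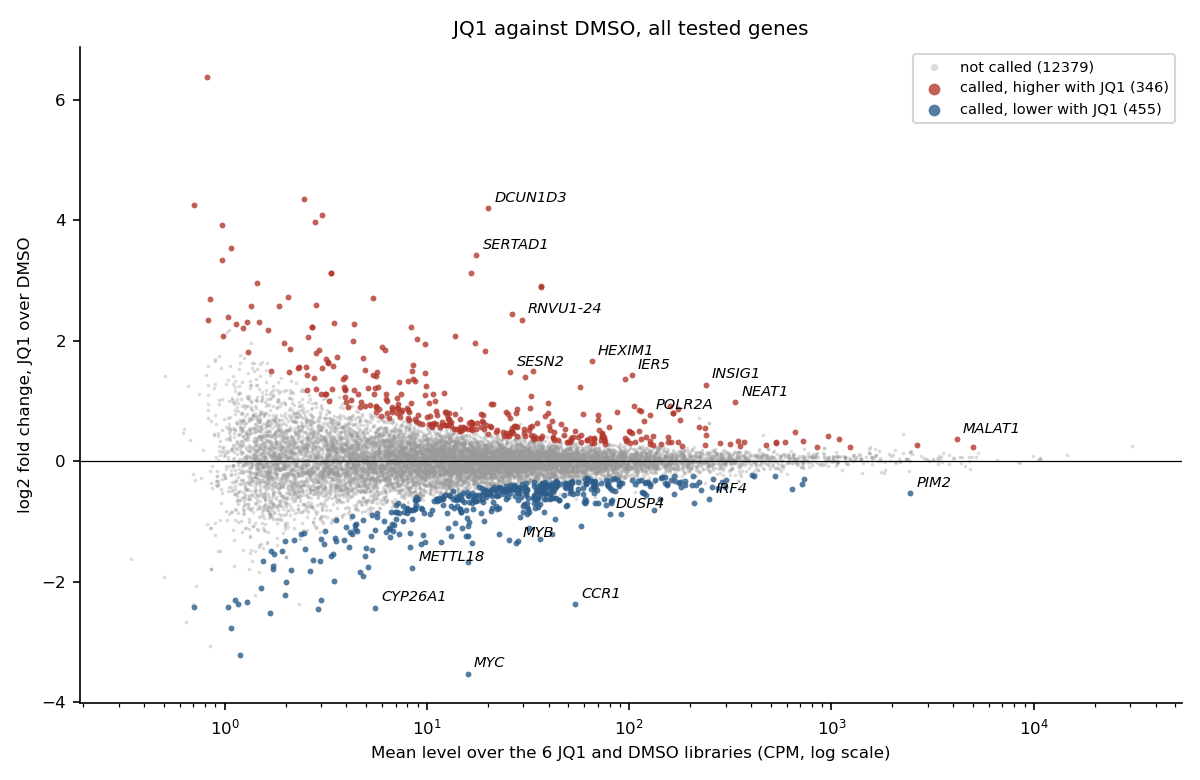
Log2 fold change of JQ1 over DMSO against the mean level over the 6 libraries (CPM, log scale) for the 13180 tested genes, with called genes in red (346 higher) and blue (455 lower). The largest rises above 10 CPM belong to *DCUN1D3* and *SERTAD1*, and the largest falls there to *MYC* and *CCR1*.

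*DCUN1D3* (ENSG00000188215), which encodes a scaffold-like regulator of NEDD8 attachment to cullins, had 34.3, 41.2 and 39.1 CPM with JQ1, against 1.61, 1.77 and 2.82 CPM with DMSO. The JQ1 libraries were all far above the DMSO libraries, with a log2 fold change of 4.21 (SE 0.23, edgeR adjusted p = 9.85e-13). *SERTAD1* (ENSG00000197019), a co-regulator of E2F-driven transcription, had 30.0, 33.7 and 32.7 CPM with JQ1, against 2.64, 4.01 and 2.33 CPM with DMSO, without overlap (3.42, SE 0.19, edgeR adjusted p = 6.77e-16). *CCR1* (ENSG00000163823), a receptor for inflammatory chemokines, had 15.9, 17.9 and 18.6 CPM with JQ1, against 97.2, 84.8 and 90.9 CPM with DMSO. Its lowest DMSO library was over every JQ1 library, and it fell by 2.37 (SE 0.11, edgeR adjusted p = 2.18e-18), the smallest adjusted p of any gene with a symbol. *MYC* averaged 2.53 ± 0.342 CPM with JQ1 and 29.2 ± 2.6 CPM with DMSO, and *HEXIM1* 99.0 ± 11.2 CPM with JQ1 and 31.4 ± 1.84 CPM with DMSO (SD, n = 3 each), both without overlap. An overlapping antisense gene, *HEXIM2-AS1*, stood at 37.7 to 56.6 CPM with JQ1 and 16.8 to 18.5 CPM with DMSO, and whether strand was used in counting is not given in the sources used here.

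Below these, the largest rises at 5 CPM or more outside histone genes included *ZNF703*, a zinc finger co-repressor (2.02), *ZCCHC24* (1.95) and *ENC1*, an actin-binding Kelch protein (1.9). The largest falls included *CYP26A1*, which degrades retinoic acid (-2.43), *METTL18*, a histidine methyltransferase of ribosomal protein (-1.77), *BOD1*, which guides chromosome orientation (-1.37), and *CYTIP*, a scaffold of lymphocyte adhesion (-1.36). *METTL18* stood at 4.12, 3.44 and 3.87 CPM with JQ1 and 12.8, 13.2 and 13.3 CPM with DMSO. *CYP26A1* stood at 1.89, 1.63 and 1.68 CPM with JQ1 and 10.7, 9.63 and 7.81 CPM with DMSO. Lack of overlap between the groups was a condition for naming these genes.

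**Figure D2:**
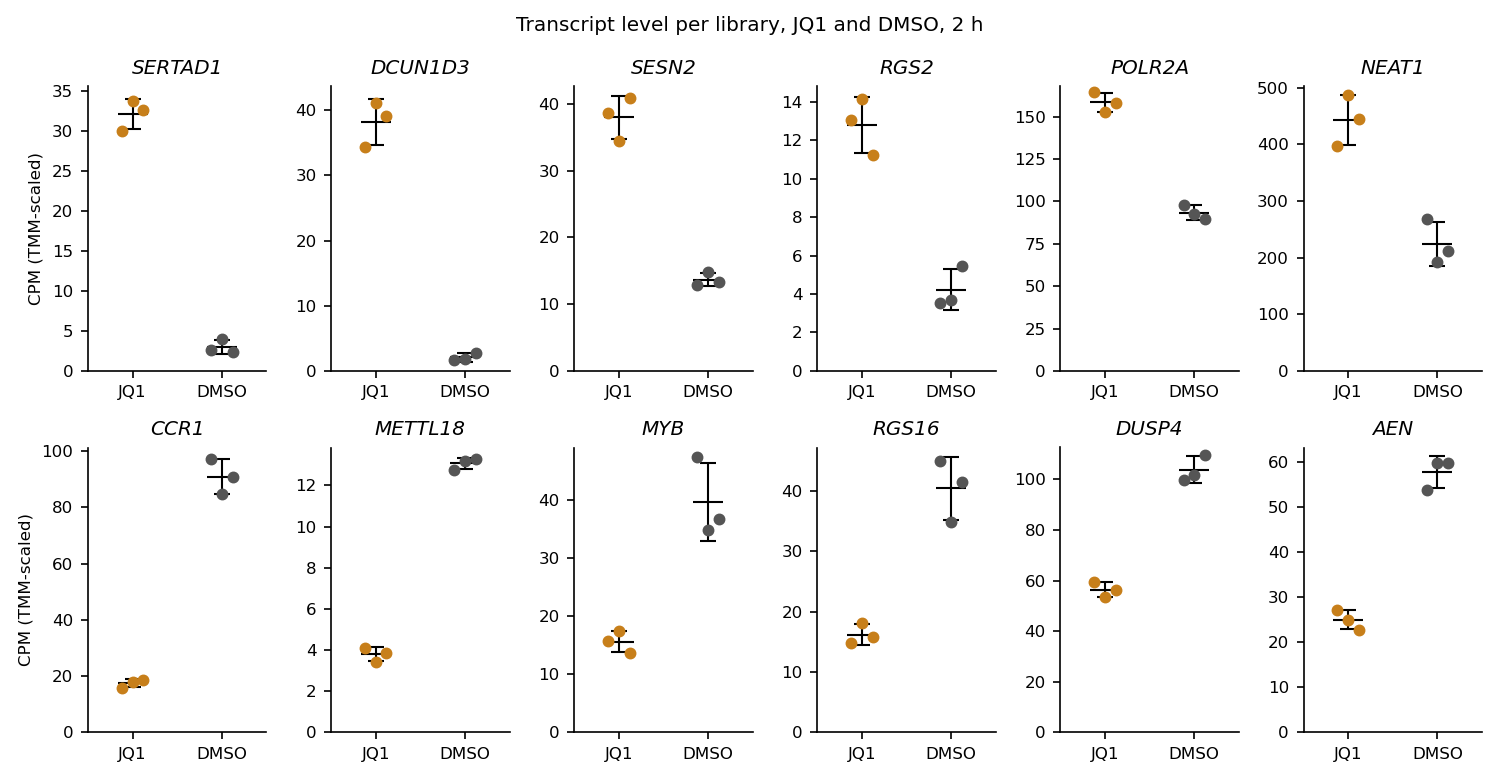
Level (CPM, TMM-scaled) of 12 genes in each library, with JQ1 left of DMSO, as points with the mean and SD (n = 3) in black. The groups do not overlap for any of the genes, with 6 higher (upper row) and 6 lower (lower row) with JQ1.

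In the transcription machinery, the genes of the BET protein BRD2 and of the largest subunit of RNA polymerase II rose with JQ1. *BRD2* had 201, 214 and 207 CPM with JQ1, against 116, 101 and 114 CPM with DMSO (0.91, SE 0.08, edgeR adjusted p = 1.88e-10). *POLR2A*, named after its values were seen, had 164, 153 and 158 CPM with JQ1, against 97.9, 92.8 and 89.7 CPM with DMSO (0.76, SE 0.08, edgeR adjusted p = 9.65e-09). *BRD3*, chosen like *CDK9* after its values were seen, did not pass the test, with a log2 fold change of 0.20 and a 95% confidence interval of -0.12 to 0.52. The kinase gene *CDK9* was too low for a firm statement, at 3.36 ± 0.447 CPM with JQ1 and 2.37 ± 1.16 CPM with DMSO (SD, n = 3 each). Of 33 BET, P-TEFb and elongation genes, 3 rose, *HEXIM1* and *BRD2* among them, and 1 fell, with a median of 0.107. The fall was *LARP7*, which binds the RNA that holds P-TEFb inactive (-0.36, SE 0.09), and it was not called without JQ1 replicate 1, JQ1 replicate 2 or DMSO replicate 3. Without 18DS replicate 2 the falls were 2. *INTS6*, a subunit of the Integrator complex that trims and ends RNA polymerase II transcripts, rose by 0.78 (SE 0.16). Of 48 Mediator and Integrator genes 2 rose and 2 fell (8.33% together, against 6.08% of all tested genes), with a median of 0.001. The falls were *MED30*, a Mediator subunit (-1.05, SE 0.28), and *INTS13*, another Integrator subunit (-0.46, SE 0.13). Neither was called without JQ1 replicate 2 or 3 or DMSO replicate 2 or 3, and *INTS13* also not without DMSO replicate 1, 18DS replicate 3 or BKM120 replicate 1. The rises of this list were 1 without JQ1 replicate 1, 2 or 3 or DMSO replicate 1 or 2, and the falls 5 without 18DS replicate 2. *PPP1R10*, which targets the phosphatase that acts on RNA polymerase II, had 142 to 150 CPM with JQ1 and 79.4 to 83.5 CPM with DMSO (0.83, SE 0.09), and was also named after its values were seen.

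Among 71 chromatin enzyme genes, 5 fell, and *NSD2* and *SIRT1* rose, *SIRT1* not without JQ1 replicate 3. *SETDB1*, a histone H3 lysine methyltransferase that silences repeats, had 23.0, 22.1 and 21.8 CPM with JQ1, against 41.3, 32.1 and 38.0 CPM with DMSO, and fell by 0.74 (SE 0.13). *NSD2*, which OPM2 expresses from a translocation that joins it and *FGFR3* to the immunoglobulin heavy chain locus, had 776, 812 and 828 CPM with JQ1, against 650, 655 and 604 CPM with DMSO, and rose by 0.34 (SE 0.07). *FGFR3*, a receptor tyrosine kinase gene of that translocation, had 561, 538 and 509 CPM with JQ1, against 720, 744 and 754 CPM with DMSO, and fell by 0.46 (SE 0.07, edgeR adjusted p = 2.73e-05). These partners in the translocation moved in opposite directions, each without overlap. The 5 falls among chromatin enzymes became 2 without JQ1 replicate 1, JQ1 replicate 3 or DMSO replicate 2, and 3 without each of the other JQ1 and DMSO libraries.

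Of 42 IRF, ETS and lymphoid transcription factor genes, 9 fell with JQ1, 1 rose and 32 were not called, and the median log2 fold change was -0.213. *IRF4*, on which myeloma cells are known to depend, had 193, 195 and 199 CPM with JQ1, against 300.1, 316 and 291 CPM with DMSO, and fell by 0.63 (SE 0.07, edgeR adjusted p = 8.41e-08). *ZBTB38*, a reader of methylated DNA, averaged 96.2 ± 4.02 CPM with JQ1 and 168 ± 5.76 CPM with DMSO (SD, n = 3 each). *PRDM1*, the repressor that drives plasma cell differentiation, fell by 0.41 (SE 0.08). The riser was *BCL6*, the germinal centre repressor that *PRDM1* is known to silence, from low levels: 3.94, 2.72 and 3.23 CPM with JQ1, against 0.734, 0.963 and 0.997 CPM with DMSO (1.86, SE 0.41, edgeR adjusted p = 0.00279). The count of falls was 5 without JQ1 replicate 1 or DMSO replicate 1, and 4 without JQ1 replicate 2 or 3.

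Some other factor genes had larger falls. *MYB*, a factor of immature blood cells, had 15.8, 17.4 and 13.7 CPM with JQ1, against 47.3, 34.8 and 36.7 CPM with DMSO (-1.36, SE 0.14, edgeR adjusted p = 1.05e-08). *TFAP4*, a helix-loop-helix factor known as a target of MYC, had 7.20, 9.61 and 6.20 CPM with JQ1, against 22.2, 25.2 and 25.6 CPM with DMSO (-1.68, SE 0.17). *KLF13* fell by 0.65 (SE 0.10) and *GFI1*, a lymphoid repressor named after its values were seen, by 0.80 (SE 0.15). The groups did not overlap for any of these factors. Of 289 *ZNF* zinc finger genes, 18 fell and 7 rose, 8.65% together, against 6.08% of all tested genes. In all 184 lay below 0, with a median of -0.138. *ZNF507* (-1.35) and *ZNF639* (-0.80) were among the falls. Without JQ1 replicate 1 or 3 the falls among them numbered 9, without JQ1 replicate 2 they numbered 11, and without DMSO replicate 2 or 3 they numbered 10.

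Among 17 ID, HES and TGF-beta feedback genes, 5 rose and 3 fell, with a median of 0.062. The falls were 1 without JQ1 replicate 2 or DMSO replicate 3. *ID1*, *ID3* and *HES6*, whose proteins hold such factors away from DNA or oppose them, rose by 0.68 (SE 0.11), 1.33 (SE 0.21) and 0.40 (SE 0.08). *ID3* had 11.5, 13.2 and 9.81 CPM with JQ1, against 4.26, 3.53 and 5.81 CPM with DMSO, without overlap. *TGIF2*, a repressor of TGF-beta responses, fell to 10.1, 10.5 and 8.0 CPM with JQ1, against 23.1, 20.2 and 23.6 CPM with DMSO (-1.24, SE 0.17), while *SKI*, another such repressor, rose by 0.79 (SE 0.18).

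AP-1 and immediate early genes, of which the latter need no new protein for their induction, numbered 26. Of these 11 rose and 1 fell, with a median of 0.29, and the rises numbered 10 or 11 in every alternative tried. *IER5*, a regulator of the heat shock factor HSF1, had 146, 144 and 160 CPM with JQ1, against 52.4, 55.2 and 59.8 CPM with DMSO (1.43, SE 0.09, edgeR adjusted p = 1.31e-14). *JUN* and *JUND*, subunits of AP-1, rose by 0.96 (SE 0.10) and 0.86 (SE 0.09), and *CSRNP2*, a nuclear protein of the same list, by 1.5 (SE 0.22). *IER3* rose by 1.64 (SE 0.32), and its antisense partner *IER3-AS1*, with which reads cannot be told apart, by 1.63. The exception was *TRIB1*, a pseudokinase that marks substrates for degradation, at 14.2, 13.8 and 13.2 CPM with JQ1 and 29.8, 30.5 and 35 CPM with DMSO (-1.21, SE 0.14).

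**Figure D3:**
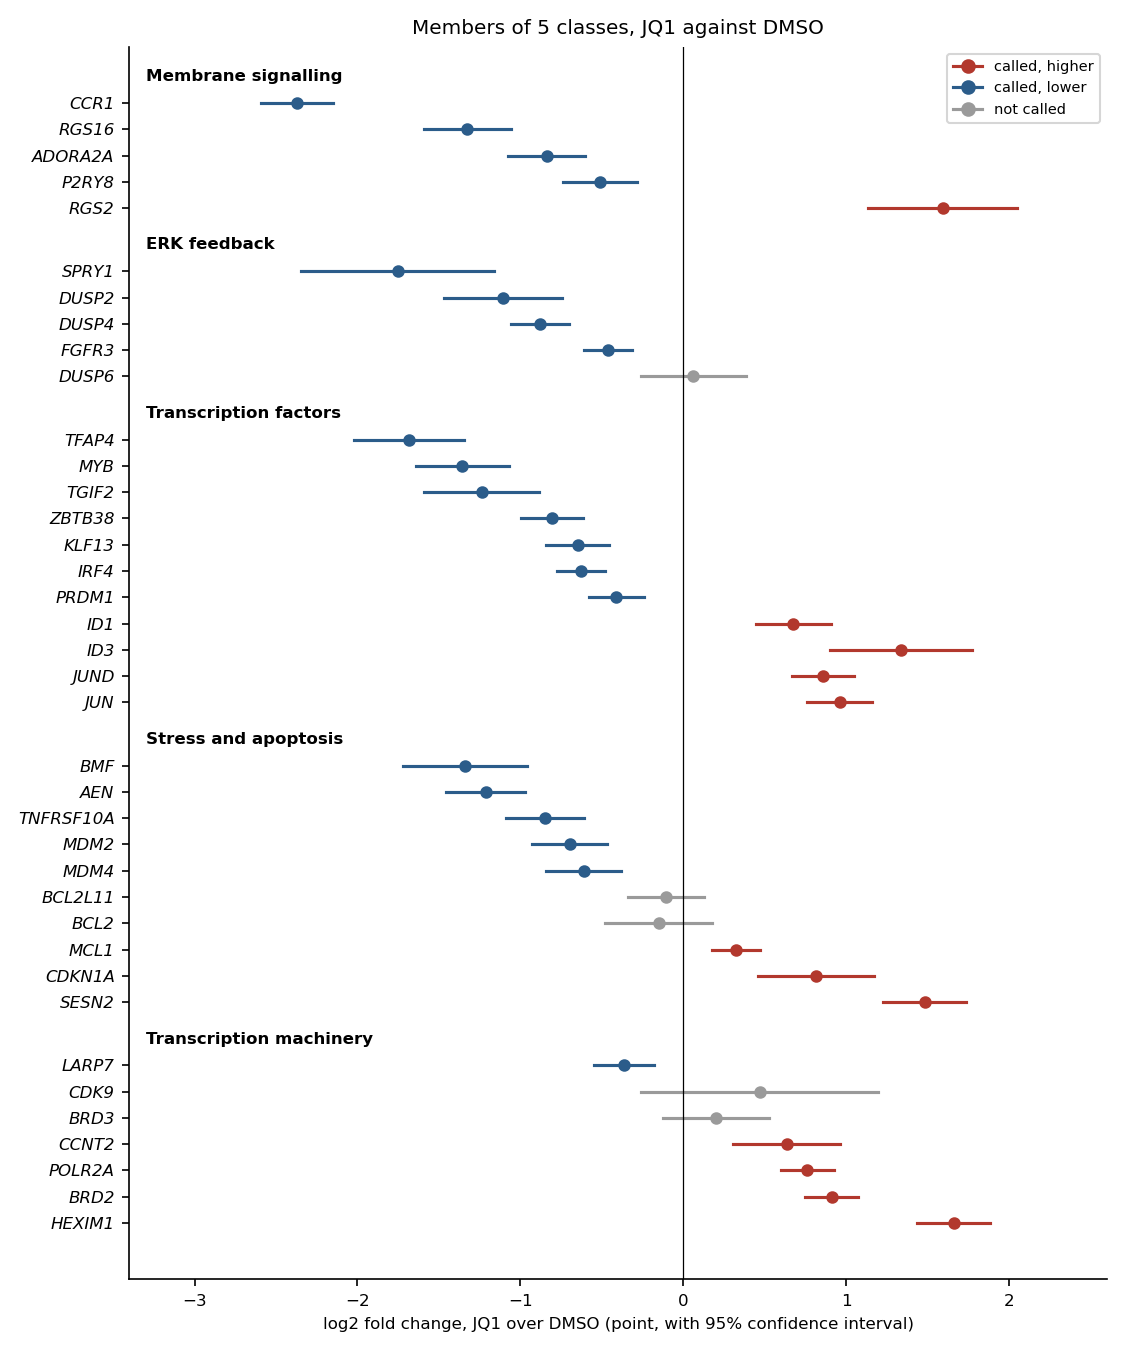
Log2 fold change of JQ1 over DMSO, with its 95% confidence interval, for selected members of 5 classes, in red where called higher, blue where called lower and grey where not called. Of the genes drawn under ERK feedback, *SPRY1*, *DUSP2*, *DUSP4* and the receptor gene *FGFR3* lie left of 0, while *SESN2*, *HEXIM1*, *ID3* and *RGS2* lie beyond 1 on the right.

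ERK is the terminal kinase of the RAS cascade, and cells switch it off through phosphatases and Sprouty proteins that it induces. Of 16 genes in the ERK feedback list, which also counts the receptor gene *FGFR3*, 5 fell and *IER3* rose. Of the 16, 9 lay above 0 with a median of 0.013, and 4 or 5 fell in every alternative. *DUSP4* had 59.3, 53.5 and 56.3 CPM with JQ1, against 99.8, 102 and 110 CPM with DMSO (-0.88, SE 0.09, edgeR adjusted p = 4.28e-09). *DUSP2* had 8.74, 8.16 and 7.36 CPM with JQ1, against 17.0, 17.2 and 17.8 CPM with DMSO, and *SPRY1* 3.26, 1.81 and 1.94 CPM with JQ1, against 6.61, 8.03 and 8.97 CPM with DMSO, again without overlap. *DUSP6*, the cytoplasmic ERK phosphatase named after its values were seen, did not pass the test, with a log2 fold change of 0.06 and an interval of -0.26 to 0.38. The other falls were *FGFR3*, a receptor gene and not a feedback phosphatase, and *DUSP7*, a relative of *DUSP6* (-0.58, SE 0.17). *DUSP7* was not called by DESeq2 or without JQ1 replicate 2 or 3 or DMSO replicate 2 or 3.

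Of 22 chemokine receptor, lymphoid G-protein-coupled receptor and RGS genes, 5 fell, *RGS2* rose and 16 were not called, with a median of -0.124. The falls include *CCR1*, described above, and *GRK6*, which was not called in 11 of 22 alternatives. *RGS16*, which speeds the switching off of G-proteins, had 14.8, 18.1 and 15.8 CPM with JQ1, against 45.1, 34.8 and 41.5 CPM with DMSO (-1.32, SE 0.13, edgeR adjusted p = 4.03e-09). Its relative *RGS2* went the other way, with 13.0, 14.1 and 11.2 CPM with JQ1, against 3.52, 3.69 and 5.48 CPM with DMSO (1.59, SE 0.22, edgeR adjusted p = 4.41e-06). *ADORA2A*, an adenosine receptor, fell by 0.84 (SE 0.12), and *P2RY8*, a receptor that confines germinal centre B cells, by 0.51 (SE 0.11). *RGL1*, an exchange factor for the small G-protein RAL that was named after its values were seen, had 13.8 to 15.9 CPM with JQ1 and 31.6 to 38.9 CPM with DMSO.

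Of 33 JAK, STAT and cytokine signalling genes, 5 fell and 1 rose, with a median of -0.183. The riser was *IL10RB*, a chain shared by several cytokine receptors (0.77, SE 0.22), which was not called when any JQ1 or DMSO library was left out, and the rises were 2 without 18DS replicate 2. *PIM2*, a survival kinase that is highly expressed in myeloma, had 2028, 2050 and 1927 CPM with JQ1, against 2756, 2980 and 2906 CPM with DMSO, and fell by 0.53 (SE 0.07, edgeR adjusted p = 9.20e-07). *IL6R*, the receptor of the myeloma growth factor interleukin-6, had 154, 150 and 155 CPM with JQ1, against 217, 205 and 197 CPM with DMSO (-0.43, SE 0.08). *IFNAR2*, a chain of the interferon receptor, fell by 0.54 (SE 0.08), but the divergent RNA *IL10RB-DT* fell as well (-0.62) and the reads of overlapping genes cannot be told apart. *BCL3* and *OTULIN*, regulators of NF-kB, fell by 0.78 (SE 0.16) and 0.63 (SE 0.14), among 19 NF-kB genes of which 2 fell and *NFKBIZ*, an atypical inhibitor of the family, rose by 1.20 (SE 0.31), though not without JQ1 replicate 2, DMSO replicate 1 or DMSO replicate 3. *NFKBIA*, the inhibitor gene that NF-kB induces, was named after its values were seen and had a log2 fold change of 0.15 (-0.09 to 0.40). Of 19 interferon-stimulated genes, 1 fell (5.26%), where 3.45% of all tested genes did. Of 39 PI3K, AKT and FOXO genes, 2 rose (5.13%), where 2.63% of all tested genes did. These were *SESN2* and *SESN3*, with 1 of them called without JQ1 replicate 3 or DMSO replicate 1.

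Of 37 surface antigen genes of plasma cells, 5 fell, none rose and 32 were not called, and 3 fell without JQ1 replicate 1, JQ1 replicate 3 or DMSO replicate 1. *TNFRSF17*, which encodes the antigen BCMA, had 229, 211 and 215 CPM with JQ1, against 274, 295 and 315 CPM with DMSO (-0.43, SE 0.07, edgeR adjusted p = 9.91e-05). *SDC1*, which encodes CD138, had 272, 247 and 242 CPM with JQ1, against 325, 322 and 320 CPM with DMSO (-0.35, SE 0.07). *JCHAIN*, the joining chain of secreted antibody, did not pass the test at 2922 to 3176 CPM with JQ1 and 2927 to 2995 CPM with DMSO. Of the 10 genes used to identify OPM2 plasma cells, 7 fell and 1 rose. The riser was *NSD2*, and *FGFR3* of the same translocation was among the falls. In the alternatives 5 to 7 fell. In lists written after the values were seen, 9 of 33 cytokine receptor genes and 7 of 69 glycosyltransferase genes fell and 1 of each rose, with the glycosyltransferases *MGAT3* (-1.29), *ST3GAL1* (-0.87) and *CHSY1* (-0.62) among the falls. By the edgeR test the rises in the receptor list were 0 when any JQ1 library or DMSO replicate 2 or 3 was left out and 2 without 18DS replicate 2, and those in the glycosyltransferase list were 0 without JQ1 replicate 1 or 2 or DMSO replicate 1 or 2.

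*BMF*, a BH3-only protein that triggers death, had 5.83, 6.71 and 7.23 CPM with JQ1, against 14.1, 18.5 and 18.1 CPM with DMSO, and fell by 1.34 (SE 0.19, edgeR adjusted p = 3.90e-06). *TNFRSF10A*, a receptor of the death ligand TRAIL, fell by 0.85 (SE 0.12), and its antisense gene *TNFRSF10A-AS1* by 1.25. *MCL1*, a survival protein of plasma cells, had 434, 400.2 and 403 CPM with JQ1, against 359.7, 318 and 309.6 CPM with DMSO, and rose by 0.32 (SE 0.07, edgeR adjusted p = 0.00318). *BCL2* (-0.15, interval -0.48 to 0.18) and *BCL2L11*, which encodes BIM (-0.11, interval -0.34 to 0.13), were chosen after their values were seen and did not pass the test. Among 29 BCL2 family and death receptor genes, 4 fell and 3 rose, with a median of 0.004, and 1 rose without JQ1 replicate 2. The falls were 2 when any 1 JQ1 library, DMSO replicate 2 or 3, or 18DS replicate 3 was left out.

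*SESN2* and *CDKN1A* rose, while *AEN*, *MDM2* and *MDM4* fell. Of 30 genes in a list of p53 targets, 5 rose and 4 fell, with a median of 0.1. That is 30% of the list, against 6.08% of all tested genes. In the alternatives 3 to 5 of the list rose and 4 fell. *SESN2*, a stress-induced inhibitor of mTORC1, had 38.6, 34.5 and 40.9 CPM with JQ1, against 12.9, 14.8 and 13.3 CPM with DMSO (1.48, SE 0.12, edgeR adjusted p = 5.03e-11). *CDKN1A*, the cell cycle inhibitor p21, rose by 0.81 (SE 0.18). *AEN*, an apoptosis-enhancing nuclease, had 27.1, 25 and 22.9 CPM with JQ1, against 53.7, 59.9 and 59.8 CPM with DMSO (-1.21, SE 0.12, edgeR adjusted p = 3.34e-09). *MDM2*, a ubiquitin ligase, and its relative *MDM4* fell by 0.70 (SE 0.11) and 0.61 (SE 0.11), each without overlap between the groups.

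Cell cycle genes were called in small number, at shares above those over all tested genes. *CDKN2D*, the CDK inhibitor p19, had 31.9, 31.9 and 30.7 CPM with JQ1, against 15, 16.7 and 21.9 CPM with DMSO (0.82, SE 0.13), among 37 cyclin and CDK inhibitor genes of which 3 rose. *E2F2*, a driver of S phase entry, had 52.8, 54.6 and 53.2 CPM with JQ1, against 87.2, 87.5 and 84.5 CPM with DMSO (-0.69, SE 0.09, edgeR adjusted p = 1.81e-06), and *CDC25A*, the phosphatase that activates CDK2, fell by 0.60 (SE 0.12). The mitotic kinase gene *AURKA* fell by 0.65 (SE 0.09). Of 59 E2F and replication genes 7 fell, and of 66 mitotic genes 5 fell, and none of either rose. These are 11.9% and 7.58% of the lists, where 3.45% of all tested genes fell, and the 3 rises among cyclin and CDK inhibitor genes are 8.11%, where 2.63% of all rose. The 7 became 2 without JQ1 replicate 2 or DMSO replicate 3 and 4 without JQ1 replicate 3 or DMSO replicate 2, while the 5 became 2 without JQ1 replicate 1 or 2, 3 without JQ1 replicate 3 or DMSO replicate 3, and 10 without 18DS replicate 2, with library totals or with the 6 libraries alone.

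Beside the rise of *DCUN1D3*, no cullin gene passed the test. Cullins are scaffolds of ubiquitin ligases that are switched on by attachment of NEDD8, and DCUN1D proteins modulate that step. Of 31 cullin, NEDD8 and COP9 genes, 0 passed the edgeR test, 0 passed by DESeq2 or limma-voom, and 1 had an unadjusted p under 0.05. *DCUN1D1* and *DCUN1D5*, relatives of *DCUN1D3*, had log2 fold changes of -0.17 (interval -0.43 to 0.09) and -0.21 (-0.41 to -0.02) and did not pass. *SERTAD2* rose by 0.62 (SE 0.14), from the same family as *SERTAD1*. Of 51 Kelch, BTB and KCTD genes, many of them substrate adaptors of cullin 3, 6 fell and 2 rose. The list does not hold *ENC1*, the Kelch gene named above among the largest rises. *KLHL9* had 19.4, 19.2 and 22.1 CPM with JQ1, against 43.3, 42.7 and 45.5 CPM with DMSO (-1.11, SE 0.13, edgeR adjusted p = 8.41e-08), and *KEAP1*, the sensor that holds the antioxidant factor NRF2 in check, fell by 0.50 (SE 0.09). The 6 falls were 3 without JQ1 replicate 3, and the 2 rises, *KLHL28* and *KLHL20*, were 0 without JQ1 replicate 3 and 1 without DMSO replicate 3. *MIDN*, which delivers nuclear proteins to the proteasome, was named after its values were seen and had 91.4, 73.8 and 75.9 CPM with JQ1, against 32.5, 36.6 and 33.9 CPM with DMSO (1.23, SE 0.10).

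**Figure D4:**
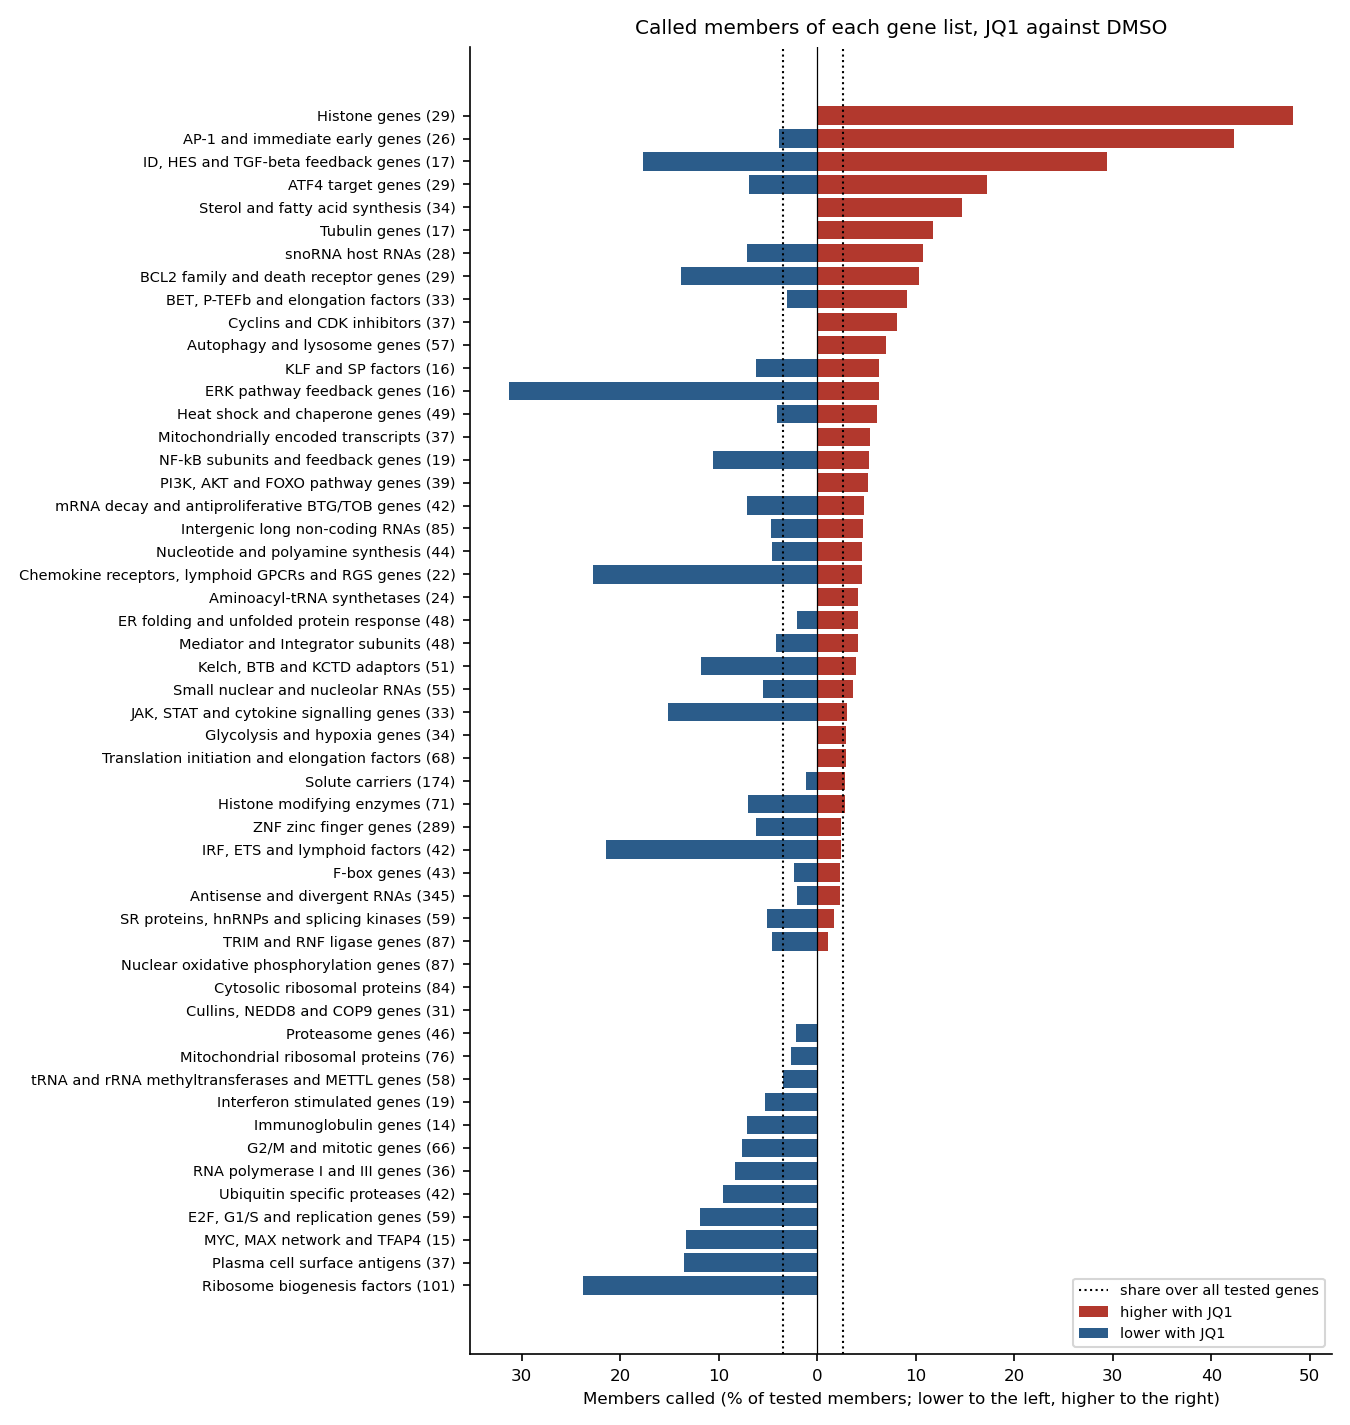
Share of tested members called lower (blue, to the left) and higher (red, to the right) with JQ1 in gene lists of at least 14 tested genes, with the number tested in brackets and dotted lines at the shares over all tested genes (3.45% lower, 2.63% higher). AP-1 and immediate early genes have 11 of 26 members higher, ribosome biogenesis factors 24 of 101 lower, and cytosolic ribosomal proteins, nuclear oxidative phosphorylation genes and cullin genes none called. The list of p53 target genes and the lists written after the values were seen are not drawn.

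Of 101 genes for factors that build ribosomes, 24 fell with JQ1, none rose and 77 were not called. In all 90 lay below 0, and the median was -0.194. *RRS1*, which loads the 5S particle, had 40.3, 30.6 and 40.8 CPM with JQ1, against 71.1, 82.0 and 83.2 CPM with DMSO (-1.07, SE 0.11, edgeR adjusted p = 9.72e-09). *UTP3*, *WDR43* and *BRIX1*, which act on the small or large subunit precursor, fell by 0.69 (SE 0.08), 0.63 (SE 0.09) and 0.70 (SE 0.10), and *UTP25*, of the small subunit processome, by 1.42 (SE 0.20). *NPM1*, a nucleolar chaperone, had a log2 fold change of 0.07 and did not pass. Of 84 cytosolic ribosomal protein genes, 0 passed the edgeR test, 0 passed by DESeq2 or limma-voom, and 4 had an unadjusted p under 0.05. The falls in biogenesis factors numbered 14 without JQ1 replicate 2, 15 without JQ1 replicate 3 and 15 without DMSO replicate 2. *TARS3*, a threonyl-tRNA synthetase, rose by 0.83 (SE 0.18), the only call among 24 tRNA synthetase genes.

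The metabolic lists differed in their share of calls. Of 34 sterol and fatty acid genes 14.7% rose, where 2.63% of all tested genes did. *INSIG1*, which retains the sterol sensor SCAP in the endoplasmic reticulum, had 334, 331 and 346 CPM with JQ1, against 145, 139 and 135 CPM with DMSO (1.27, SE 0.08, edgeR adjusted p = 4.47e-15). *IDI1*, an isomerase of cholesterol synthesis, rose by 0.75 (SE 0.12). They were among 5 rises and no falls in 34 sterol and fatty acid genes, a count that was 3 without JQ1 replicate 2 or DMSO replicate 2 and 2 without JQ1 replicate 3 or DMSO replicate 3. *SCD*, a desaturase gene that the same sensor controls, was named after its values were seen and did not pass the test (0.08, interval -0.16 to 0.31). *SAT1*, which breaks down polyamines, rose by 0.99 (SE 0.18), and *RRM2*, a subunit of ribonucleotide reductase, by 0.44 (SE 0.07). Of 87 nuclear genes of oxidative phosphorylation, 0 passed the edgeR test, 0 passed by DESeq2 or limma-voom, and 3 had an unadjusted p under 0.05.

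*DNAJB1*, a co-chaperone that HSF1 induces, had 124, 143 and 148 CPM with JQ1, against 70.3, 70.5 and 78.9 CPM with DMSO (0.92, SE 0.09, edgeR adjusted p = 1.15e-09). *HSPA8*, the constitutive HSP70, had 1091, 1032 and 1159 CPM with JQ1, against 764, 829 and 865 CPM with DMSO (0.42, SE 0.07), and *HSPA1B*, the inducible HSP70, rose by 0.96 (SE 0.21). In all, 3 of 49 heat shock and chaperone genes rose and 2 fell, 1 of them without JQ1 replicate 2 or 3 or DMSO replicate 3. *SQSTM1*, the autophagy receptor p62, rose by 0.79 (SE 0.11). *PPP1R15A*, which reverses the stress block on translation, rose by 0.94 (SE 0.14), whereas *TRIB3*, another target of the stress factor ATF4, fell by 1.15 (SE 0.27). Of 29 ATF4 target genes 5 rose and 2 fell, with a median of -0.005, and 3 rose without JQ1 replicate 2 or DMSO replicate 2. The falls were 1 without JQ1 replicate 2.

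Some genes of RNA-binding and RNA-tailing proteins changed. *CIRBP*, a cold-inducible RNA-binding protein named after its values were seen, had 222, 223 and 216 CPM with JQ1, against 140, 132 and 141 CPM with DMSO (0.68, SE 0.08, edgeR adjusted p = 6.35e-08). *TENT4B*, a poly(A) polymerase of nuclear decay, rose by 0.76 (SE 0.10), and *TOB1*, which recruits the CCR4-NOT deadenylase, by 0.97 (SE 0.21). *TENT5C*, a cytoplasmic poly(A) polymerase often mutated in myeloma, had 58.8, 57.1 and 74.9 CPM with JQ1, against 108, 118 and 127 CPM with DMSO (-0.88, SE 0.11, edgeR adjusted p = 6.56e-06). *HNRNPDL*, a splicing repressor, fell by 0.38 (SE 0.07). Since libraries start at poly(A) tails, a change in tail length or site use would also change such counts, and this was not tested.

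Nuclear long non-coding RNAs were among the risers. *NEAT1*, the scaffold of paraspeckles, had 397, 486 and 445 CPM with JQ1, against 268, 192 and 212 CPM with DMSO (0.98, SE 0.12, edgeR adjusted p = 0.000107), and its neighbour *MALAT1*, of nuclear speckles, had 4726, 4910 and 4404 CPM with JQ1, against 4264, 3369 and 3282 CPM with DMSO (0.36, SE 0.08). *MIR17HG*, the host RNA of a microRNA cluster known as a target of MYC, had 40.0, 42.2 and 43.6 CPM with JQ1, against 53, 65.8 and 62.8 CPM with DMSO (-0.53, SE 0.10). *RNVU1-24*, a variant U1 small nuclear RNA, had 51.8, 51.1 and 44.9 CPM with JQ1, against 9.69, 8.03 and 11.1 CPM with DMSO (2.35, SE 0.14, edgeR adjusted p = 2.19e-15). Since libraries start at poly(A) tails, this count need not follow the level of RNA without a tail, which was not tested. It was 1 of 2 rises among 55 small nuclear and nucleolar RNA genes, of which 3 fell, with a median of -0.101. The pseudogenes *RN7SKP255* and *RN7SKP203* of the RNA that holds P-TEFb inactive fell by 0.54 (SE 0.11) and 0.51 (SE 0.11). Such copies can share reads with one another, so that the copy of origin is uncertain. Over all 1057 long non-coding genes, 3.69% rose and 2.55% fell, against 2.62% and 3.94% of 10371 protein-coding genes. Of 7 tested *OR7E* pseudogenes, listed after their values were seen, 6 rose, 3 of them without JQ1 replicate 2. *OR7E12P* had 10.3, 21.9 and 11.9 CPM with JQ1, against 6.31, 7.22 and 6.48 CPM with DMSO, and its near-identical copies may share reads.

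The genes that rose or fell are described here by their structure and promoter, with no test. Of 176 protein-coding genes with a single exon, 9.66% rose and 6.25% fell. With histone genes left out, 5.7% of 158 such genes rose and 6.96% fell, against 2.44% and 3.91% of 10183 genes with more exons, and *IER5*, *JUN*, *HEXIM1*, *RRS1* and *KLHL9* were among them. The share that fell was highest in the fourth of 5 classes of abundance, at 6.07%, against 1.4% in the least abundant, where the median SE was 0.42, and 4.02% in the most abundant. Among 8461 protein-coding genes with a RefSeq promoter (81.6% of those tested), TATAAA stood within 250 bases before to 50 after a start in 12.7% of genes that rose, histone genes left out, 7.62% of those that fell and 7.9% of all. In genes with 1 annotated window these shares were 13.1%, 3.86% and 4.74%. The E-box CACGTG, the letters that MYC and MAX bind, stood in 11.7% of those that rose, 19.6% of those that fell and 13.1% of all. In genes with 1 annotated window the E-box shares were 11.3%, 17.6% and 11%. Median GC content was 66.3% in the risers, histone genes left out, 64% in the fallers and 65% over all.

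**Figure D5:**
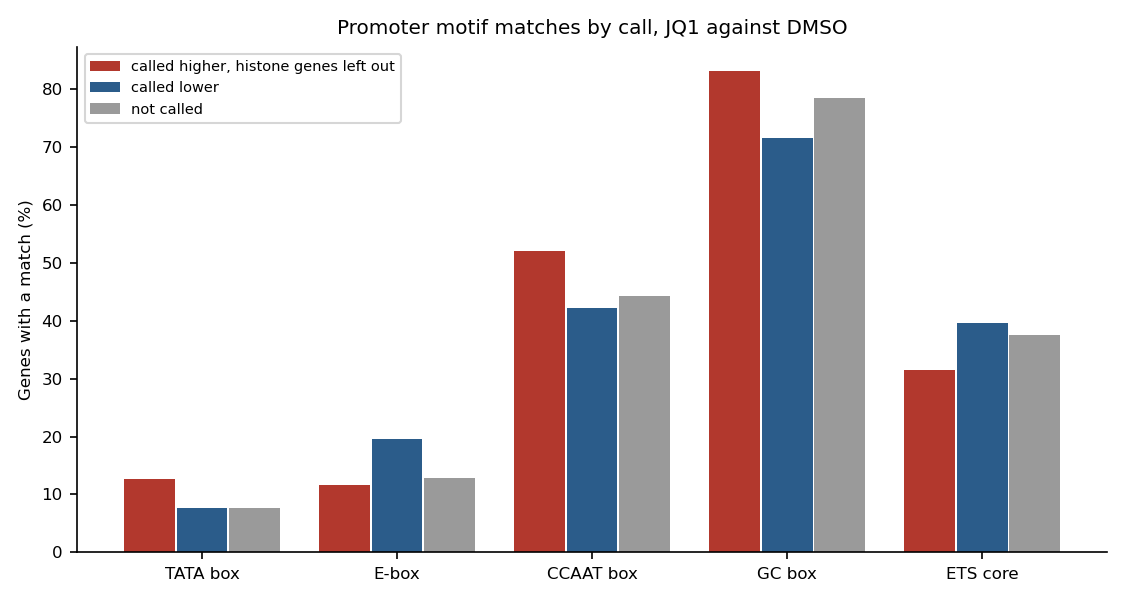
Share of protein-coding genes (%) whose promoter holds each motif, for genes called higher with histone genes left out (red, 213), called lower (blue, 341) and not called (grey, 7893). TATA box matches are more frequent among the genes called higher (12.7% against 7.65% of those not called), and E-box matches among those called lower (19.6% against 12.8%). A gene counts where any of its annotated windows holds the motif.

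At the same 250 nM and 2 h, JQ1 was set against 18DS, described by the submitters as a chimera that inhibits both PI3K and BET proteins. *DCUN1D3*, *SERTAD1* and *JUN* stood lower with JQ1 than with 18DS. *DCUN1D3* averaged 38.2 ± 3.53 CPM with JQ1 and 79.8 ± 9.45 CPM with 18DS (SD, n = 3 each), a difference of -1.06 (SE 0.14, edgeR adjusted p = 6.33e-05). *SERTAD1* differed by -0.73 (SE 0.13) and *JUN* by -0.56, both lower with JQ1. *KLHL9* (0.96, SE 0.15) and *INSIG1* (0.72, SE 0.08) were higher with JQ1, and *PIM2* was lower (-0.54, SE 0.07). These differences held in all 21 alternatives, among 549 genes (4.17%) that differed between the compounds, 236 higher with JQ1 (1.79%) and 313 lower (2.37%). Their number was 105 without JQ1 replicate 3, 123 without JQ1 replicate 2, 317 without JQ1 replicate 1, 1027 without 18DS replicate 1, 215 without 18DS replicate 2 and 159 without 18DS replicate 3. Other genes were less steady. In the 21 alternatives *CCR1* was higher with JQ1 by 0.477 to 0.587 and was called in 17. *MGAT3* and *GFI1*, also higher, were called in 17 and 20, and *POLR2A*, lower with JQ1, in 18. *HEXIM1* and *IER5* were called in 2 and 1. *MYC* differed by -0.02 with an interval of -0.63 to 0.59, *IRF4* by 0.04 (-0.10 to 0.19), *DUSP4* by 0.11 (-0.08 to 0.29) and *RGS16* by -0.07 (-0.36 to 0.23). Against BKM120, a PI3K inhibitor given at another dose (1 µM), 1926 genes differed (14.6%), 948 higher with JQ1 (7.19%) and 978 lower (7.42%). These comparisons with JQ1 and that with DMSO share the JQ1 libraries. *MYC* stood at 2.53 ± 0.342 CPM with JQ1 and 51.2 ± 4.66 CPM with BKM120, and *INSIG1* at 337 ± 8.23 CPM with JQ1 and 80 ± 6.8 CPM with BKM120 (SD, n = 3 each).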

How the data were processed

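The values deposited by the authors are raw whole-number counts per Ensembl gene, not normalized. Per the submitters' processing notes, the tools were HISAT2 2.1.0, Subread with featureCounts, cutadapt 1.7, SAMtools 1.9, limma, bcl2fastq 2.17.1.14 and FastQC 0.11.5, and the build was hg19. Per the labels' protocols, QuantSeq 3' libraries were sequenced as single-end reads. Strand setting and annotation release were not given in the sources used here. Symbols matched 51662 of 63152 identifiers. A GENCODE annotation of another build gave gene types and exon numbers only, and RefSeq gave promoters on GRCh38.p14.

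Genes were filtered with filterByExpr (minimum count 10, minimum total 15), which kept 13180. A robust quasi-likelihood model in edgeR 4.0.16 (R 4.3.3, limma 3.58.1, DESeq2 1.42.0, data.table version 1.17.8) with TMM scaling was fitted over all 12 libraries in 4 groups, so that every group shares the estimate of spread. P-values were adjusted over all tested genes. Intervals are 95% confidence intervals. Figures used Python 3.11.15, matplotlib 3.10.9, pandas 2.3.3 and numpy 2.4.6. Because scaling is relative, a change common to all transcripts would not show.

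Members and lists were chosen with earlier results of these data known. Named genes are *MYC*, *HEXIM1*, *SERTAD1*, *CCR1*, the 12 largest changes in each direction at 5 CPM or more without overlap, and, per list, up to 6 called members with the smallest adjusted p and the most abundant member. Others are said to be named after their values were seen. They also include *HEXIM2-AS1*, *DCUN1D1*, *DCUN1D5*, *SIRT1*, *SESN3* and the cell type markers. The 3 libraries of a group are described as biological triplicates. No pair of libraries within the JQ1 or DMSO group matched to within counting noise (chi-square over degrees of freedom 1.92 to 4.76). The test was checked on simulated data for JQ1 against DMSO, where it made 157 calls and 12 were false. Where genes had been altered by a factor of 1.5, it called 32 out of 67. For a factor of 2 it called 53 out of 67, and for a factor of 4 it called 60 out of 66. A gene that did not pass may thus still have changed by a factor near 1.5, and less often by a factor of 2 or 4. The alternatives were other scalings, DESeq2, limma-voom, dispersions without the robust option, the 6 libraries alone, other filters, the replicate number as a block, and the fit without each library.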

Additional observations from a re-analysis of the deposited data

How the results depend on the processing

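The count of genes called in JQ1 against DMSO was 801, and 621 by DESeq2's Wald test, 749 by limma-voom, 806 with DESeq2 size factors, 779 without the robust option, 796 without a filter, 690 at a mean of at least 5 CPM and 1102 with the 6 libraries alone, of which 782 were shared with the 801. Leaving out each library in turn gave 504 to 1021 calls in all, 224 to 430 higher and 276 to 591 lower. With JQ1 against 18DS it gave 105 to 1027, and with JQ1 against BKM120 1156 to 2317. With the replicate number as a block, 743 genes were called, 731 of them among the 801. The deviations of same-numbered JQ1 and DMSO libraries from their group means had correlations of -0.0283, 0.0311 and 0.0237. Deviations from a mean of 3 libraries are tied to one another, so these values cannot decide whether the numbers pair the libraries. Of 238 named genes, 153 stayed on the same side of the threshold in the same direction in all alternatives, 22 at most for a gene, and 238 kept their direction. Of 61 lists, 37 had a count of called members that moved by over 1.5 times in some alternative. The median log2 fold change of all genes was -0.026 with library totals and 0.034 with upper-quartile factors. The cause of these shifts in counts was not tested. At this depth, the least abundant of 5 classes of genes had a median SE of 0.42, so that changes of small size there were not detectable.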
